A study of Mus musculus with 9 samples.

Results

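A set of 33 genes of sterol synthesis, uptake and trafficking was followed in mouse macrophages. The genes were found by their symbols among the 28998 genes of the deposited table, and they comprise 19 enzymes that make cholesterol, 5 members of the SREBP control circuit, 6 genes of uptake, lysosomal export and storage, and 3 genes of the LXR and oxysterol pathway. All 33 are in the table, and each passed the filter on low values, a mean of at least 1 FPKM (fragments scaled to transcript length and library depth) over the 9 libraries.

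The cells came from bone marrow monocytes of wild-type C57 mice, cultured with GM-CSF, a macrophage growth factor, for 7 days. The label calls the resulting macrophages BMDMs. There were 3 groups of 3 libraries: Control, JHU083 and WGFT17, and the drugs were given for 36 hours. What the Control cells received, the doses and the age of the mice are not given in the sources used here. JHU083 is a prodrug of the glutamine antagonist DON, and WGFT17 is known here by its code alone. The libraries are labelled as samples 1 to 3 of each group, and nothing says that they came from separate mice or cultures, so the p-values measure the spread between these samples, which may be technical.

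Cells make cholesterol from acetyl-CoA through mevalonate, squalene and lanosterol, and they also take it up as lipoprotein, which is broken down in the lysosome. When sterol in the endoplasmic reticulum is low, the carrier protein encoded by Scap brings SREBP-2, the product of Srebf2, to the Golgi, where it is cut and becomes an activator of the synthesis genes; INSIG proteins hold it back when sterol is plentiful. Oxysterols activate the liver X receptors (LXR), which switch on export and limit uptake, and macrophages, which engulf dead cells and lipoproteins, are known for storing the excess as droplets of cholesteryl ester.

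The promoter of an SREBP-2 target is usually described as a sterol regulatory element next to sites for NF-Y and Sp1. RefSeq promoter windows of GRCm38.p6, from 250 bases before to 50 bases after the start, were available for 27 of the 33 genes. Acat1, Fdft1, Fdps, Npc1, Sqle and Stard4 had no entry. The windows were searched on both strands for TCACNCCAC (sterol regulatory element), CCAAT (NF-Y) and GGGCGG (Sp1). The 9-letter element was found in 1 of the 27 genes, Hmgcs1, against 1.4% of the 8691 tested genes with a window. TCACNCCA, a shorter form chosen after the data were seen that also matches wherever TCACNCCAC does, was in Hmgcs1, Msmo1 and Srebf2, against 4.5% of those genes. CCAAT was in 22 of the 27 genes, including 14 of 15 synthesis enzymes and 8 of 12 other members, against 43.1%. GGGCGG was in 23 of the 27, including 14 of 15 synthesis enzymes and 9 of 12 others, against 69.7%. A match of letters is a description of the window, not a site shown to be bound.

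Stretches that lie outside annotated exons, or a site of 30 bases where they do not, are shown for the genes with a short element and for Cyp51 and Ch25h, the sterol enzymes with a window that stand at opposite ends of the response described here. The first is Hmgcs1, chr13:119690151-119690350 on the plus strand, followed by Srebf2, chr15:82147069-82147180 on the plus strand, and Msmo1, chr8:64733730-64733759 on the minus strand and inside an annotated first exon. Cyp51 is chr5:4104747-4104897 and Ch25h chr19:34475165-34475348, both on the minus strand. Capitals mark letters that match TCACNCCA, CCAAT or GGGCGG on either strand, and all are written 5′ to 3′ along the gene.
Hmgcs1: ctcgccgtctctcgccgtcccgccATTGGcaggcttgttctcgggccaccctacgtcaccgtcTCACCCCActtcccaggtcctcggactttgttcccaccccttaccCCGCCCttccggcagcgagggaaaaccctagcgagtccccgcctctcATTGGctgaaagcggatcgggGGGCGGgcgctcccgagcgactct
Srebf2: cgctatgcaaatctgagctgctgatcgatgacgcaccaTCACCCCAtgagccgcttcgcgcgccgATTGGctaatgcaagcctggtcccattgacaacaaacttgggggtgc
Msmo1: attcTCACTCCAtccgcgcagCCAATgact
Cyp51: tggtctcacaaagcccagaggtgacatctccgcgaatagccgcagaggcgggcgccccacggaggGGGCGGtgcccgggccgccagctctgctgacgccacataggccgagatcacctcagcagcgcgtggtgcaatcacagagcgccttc
Ch25h: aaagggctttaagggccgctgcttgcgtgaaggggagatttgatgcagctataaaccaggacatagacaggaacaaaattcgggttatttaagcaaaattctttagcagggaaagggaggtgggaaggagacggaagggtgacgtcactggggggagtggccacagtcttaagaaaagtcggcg
The Hmgcs1, Srebf2 and Msmo1 stretches each hold an element near a CCAAT match. In the Cyp51 stretch 1 GGGCGG match was found. The window of Cyp51 also holds a CCAAT match, at -29 to -25 from the start, which lies outside the printed stretch. The Ch25h stretch holds none of the letters searched.

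Total estimated counts ran from 56624220 to 69112134 per library, and 24.0% of the 11798 tested genes differed between JHU083 and Control, 58.0% between WGFT17 and Control and 44.7% between WGFT17 and JHU083 (edgeR quasi-likelihood test, Benjamini-Hochberg adjusted p under 0.05). The 10 macrophage markers summed to 17500 to 18900 CPM (counts scaled to the library total) in Control, 18500 to 19700 in JHU083 and 17500 to 19400 in WGFT17. Single markers moved in opposite directions under these sums. In FPKM 5 of the 10 lay wholly above Control in WGFT17, Lyz2 included, against 45.0% of tested genes. Wholly below it lay 4, Csf1r, Itgam, Mrc1 and Aif1, against 28.2%. In JHU083 2 lay above, 2 below and 6 overlapped, against 31.3% above and 12.4% below. The 10 fibroblast markers summed to 13900 to 14900 CPM in Control, 9130 to 10400 in JHU083 and 2470 to 2610 in WGFT17, with no marker at 0 in all libraries of a group. The JHU083 libraries differed among themselves in markers of other tissues. In replicates 1, 2 and 3, 15 heart muscle markers summed to 235, 3.03 and 385 CPM, so that replicate 2 was apart, against 303 to 357 in Control and 1.72 to 2.03 in WGFT17. There 13 photoreceptor markers summed to 5.74, 5.5 and 42.4 CPM, so that replicate 3 was apart, against 37.8 to 46.1 in Control and 3.79 to 4.44 in WGFT17. In bulk RNA, fewer cells of a type and less RNA per cell cannot be told apart.

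Cholesterol synthesis enzymes were lower in WGFT17 cells than in Control at nearly every step. Of the 19 enzymes, 18 fell and 1 did not pass the test, where 30.0% of all tested genes fell, and the median log2 change was -1.16 against 0.004 over all tested genes. In 13 of the 19 the fall was at least 2-fold, where 10.8% of all tested genes fell that far. The FPKM of the 2 groups did not overlap in 18 of 19, all lower in WGFT17, against 28.2% of tested genes. In JHU083 cells 10 of the 19 fell and 9 did not pass the test, where 12.5% of all tested genes fell, with a median of -0.29. Their FPKM lay wholly below Control in 9 of 19, against 12.4% of tested genes, and no fall reached 2-fold, against 1.18%. In neither treatment did an enzyme rise: 0 of 19 passed upward in edgeR, at an unadjusted p under 0.05, in DESeq2 or in limma on FPKM. Of all tested genes 28.0% rose in WGFT17 and 11.5% in JHU083 by edgeR.

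**Figure D1:**
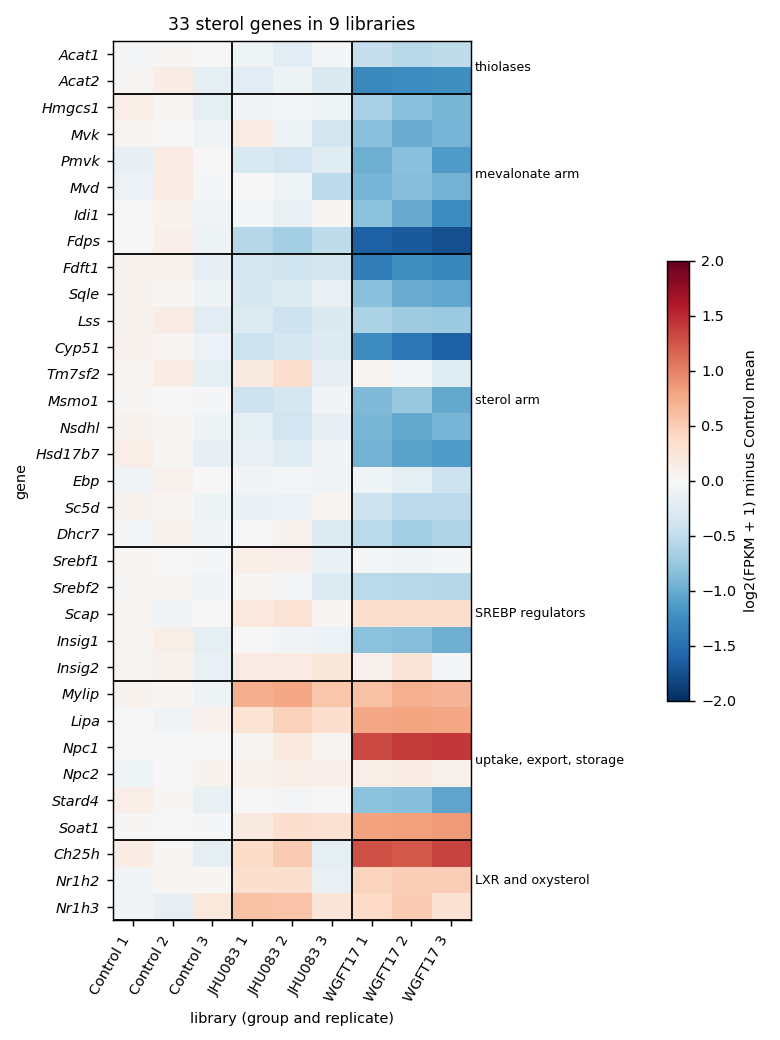
Heat map of the 33 genes (rows, ordered by role) in the 9 libraries (columns, by group and replicate). Colour is log2(FPKM + 1) minus the Control mean of the gene. Apart from Tm7sf2 and Ebp, the synthesis rows are low in all 3 WGFT17 libraries, and the Npc1, Lipa, Soat1, Mylip and Ch25h rows are high there.

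The pathway starts with the condensation of acetyl-CoA. Acat2, the cytosolic thiolase that makes acetoacetyl-CoA for sterols, stood at 9.12, 9.99 and 7.82 FPKM in the 3 Control libraries, against 7.47, 8.28 and 7.16 with JHU083 and 3.08, 3.14 and 3.26 with WGFT17. All WGFT17 libraries lay far below the other 6, while the JHU083 and Control ranges overlapped. The WGFT17 fall was 3.06-fold, a log2 change of -1.61 with a standard error (SE) of 0.10 (adjusted p = 1.5e-07). In JHU083 the log2 change was -0.33 (adjusted p = 0.0337). Acat1, the mitochondrial thiolase that serves ketone bodies and isoleucine breakdown more than sterol synthesis, measured 12.9, 13.2 and 13.03 FPKM in Control, against 12.3, 11 and 12.7 with JHU083 and 9.19, 8.59 and 8.82 with WGFT17. Its log2 change was -0.21 in JHU083 (adjusted p = 0.0357) and -0.66 in WGFT17 (adjusted p = 6.11e-06). The cytosolic enzyme thus changed more than the mitochondrial one on the log2 scale, though the difference between the 2 genes was not tested.

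All 6 enzymes of the mevalonate arm fell in WGFT17, with a median log2 change of -1.23, and 2 of 6 fell in JHU083, with a median of -0.24. Of all tested genes 30.0% fell in WGFT17 and 12.5% in JHU083. Hmgcs1 makes HMG-CoA, the substrate of the rate-limiting step, and its promoter stretch is printed above. It measured 28.02, 26.5 and 22.1 FPKM in the Control libraries, 24.3, 24.7 and 23.9 in those of JHU083 and 15.8, 13.7 and 13.1 in those of WGFT17. WGFT17 lay below every other library, and JHU083 lay within the Control range. The log2 change was -0.95 in WGFT17 (SE 0.09, adjusted p = 4.1e-06) and -0.16 in JHU083, which did not pass the test (adjusted p = 0.201).

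Mvk, Pmvk and Mvd turn mevalonate into isopentenyl diphosphate, and Idi1 isomerises it. Mvk, mevalonate kinase, averaged 8.45 ± 0.407, 7.89 ± 1.61 and 4 ± 0.276 FPKM in Control, JHU083 and WGFT17 (mean ± SD, n = 3, as for all means here). Mvd, the decarboxylase, averaged 20.2 ± 2.21, 17.6 ± 3.46 and 10.3 ± 0.367 FPKM. Neither differed between JHU083 and Control by the test, with log2 changes of -0.19 and -0.29 (adjusted p = 0.295 and 0.119). In WGFT17 their log2 changes were -1.18 and -1.09 (adjusted p = 1.44e-05 and 2.97e-05). Pmvk, phosphomevalonate kinase, was 6.24, 8.17 and 7.15 FPKM in Control, against 5.60, 5.22 and 5.87 with JHU083 and 3.13, 3.56 and 2.71 with WGFT17, so that the 3 groups did not overlap. Its log2 change was -0.46 in JHU083 (adjusted p = 0.0284) and -1.31 in WGFT17 (adjusted p = 9.87e-06). Idi1 was 10.7, 11.3 and 10.1, then 10.6, 9.58 and 10.9, then 5.63, 4.80 and 3.94 FPKM, with JHU083 overlapping Control and WGFT17 below both. The Idi1 log2 change in WGFT17 was -1.27 (adjusted p = 3.37e-06), and -0.14 in JHU083 did not pass the test (adjusted p = 0.374).

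Fdps showed the most pronounced fall of the 33 genes in both treatments. It encodes farnesyl diphosphate synthase, whose product is the branch point between sterols, dolichol, ubiquinone and protein prenylation, and lies at chr3:89093588-89101959 (GRCm38). It measured 20.2, 21.96 and 18.9 FPKM in the Control libraries, 13.4, 12.3 and 14.02 in those of JHU083 and 5.88, 5.64 and 5.29 in those of WGFT17. The 3 groups were fully separate, with JHU083 between the other 2. In the edgeR fit the fall was 3.91-fold in WGFT17, a log2 change of -1.97 (SE 0.07, adjusted p = 2.57e-09), and 1.64-fold in JHU083, a log2 change of -0.71 (SE 0.07, adjusted p = 0.000328).

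Enzymes committed to sterols formed the longer arm. Of these 11, 10 fell in WGFT17, with a median log2 change of -1.10, and 6 fell in JHU083, with a median of -0.37, beside 30.0% and 12.5% of all tested genes. Fdft1, squalene synthase, was 13.7, 13.8 and 11.4 FPKM in Control, against 10, 9.58 and 9.81 with JHU083 and 4.34, 4.93 and 4.63 with WGFT17. Sqle, squalene epoxidase and a second rate-controlling enzyme, was 15.1, 14.7 and 13.3, 11.2, 11.7 and 12.8 and 7.58, 6.74 and 6.49 FPKM in the same order. Both genes were lower in every JHU083 library than in any Control library, and lower again in every WGFT17 library. The log2 changes of Fdft1 were -0.50 (adjusted p = 0.00215) in JHU083 and -1.59 (adjusted p = 2.65e-08) in WGFT17. Those of Sqle were -0.37 (adjusted p = 0.00721) and -1.16 (adjusted p = 2.49e-07). Lss, which closes squalene epoxide into lanosterol, was among the lowest enzymes, at 3.48 ± 0.562, 2.55 ± 0.184 and 1.75 ± 0.11 FPKM. Its log2 change was -0.54 (adjusted p = 0.0064) in JHU083 and -1.10 (adjusted p = 7.33e-06) in WGFT17.

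Cyp51, the demethylase that acts on lanosterol and lies at chr5:4081145-4104746, was 20.4, 19.7 and 17.7 FPKM in the Control libraries, 13.9, 14.8 and 15.98 in those of JHU083 and 7.48, 6.46 and 5.53 in those of WGFT17. Its 3 groups did not overlap. The fall was 3.19-fold in WGFT17 (log2 change -1.68, SE 0.10, adjusted p = 1.35e-07), and the log2 change in JHU083 was -0.46 (adjusted p = 0.00887). Msmo1, Nsdhl and Hsd17b7 act one after another to strip the paired methyl groups from carbon 4 of the sterol ring. Msmo1 averaged 15.5 ± 0.346, 12.7 ± 1.88 and 7.93 ± 0.82 FPKM, Nsdhl 9.97 ± 0.667, 8.24 ± 0.742 and 4.66 ± 0.249, and Hsd17b7 6.13 ± 0.727, 5.42 ± 0.425 and 2.44 ± 0.227. Their WGFT17 log2 changes were -1.07, -1.21 and -1.44 (adjusted p = 5.41e-06, 5.83e-07 and 6.31e-07). In JHU083 Msmo1 and Nsdhl fell, with log2 changes of -0.38 and -0.37 (adjusted p = 0.0234 and 0.0126), and Hsd17b7 at -0.27 did not pass the test (adjusted p = 0.0805).

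Smaller changes were measured at 4 other enzymes of this arm. Sc5d, the desaturase of the final ring steps, and Dhcr7, which makes cholesterol from 7-dehydrocholesterol, had WGFT17 log2 changes of -0.65 and -0.81 (adjusted p = 2.99e-05 and 2.04e-05). Sc5d averaged 10.2 ± 0.654, 9.74 ± 0.838 and 7.02 ± 0.364 FPKM, and Dhcr7 8.61 ± 0.418, 8.18 ± 1.1 and 5.28 ± 0.354. Neither passed the test in JHU083 (log2 changes -0.16 and -0.17, adjusted p = 0.145 and 0.203). Ebp, a sterol isomerase, was 19.4, 21.8 and 20.5 FPKM in Control, against 19.7, 20.1 and 19.6 with JHU083 and 19.2, 17.98 and 14.96 with WGFT17, and its highest WGFT17 library almost reached the lowest Control library. Its log2 change was -0.35 (adjusted p = 0.00479) in WGFT17, a call that ended when a trend with transcript length was removed (log2 change -0.09, adjusted p = 0.337). Tm7sf2, a sterol reductase, was 2.5, 2.77 and 1.96 FPKM in the Control libraries, 2.86, 3.27 and 2.03 in those of JHU083 and 2.47, 2.35 and 1.88 in those of WGFT17. It was the 1 synthesis enzyme whose WGFT17 and Control libraries overlapped, and its log2 change of -0.22 had a 95% interval of -0.58 to 0.14 (value ± 1.96 SE, as for the intervals below). Lbr, a nuclear envelope protein that catalyses the same reduction and was not among the 33 genes, averaged 6.24 ± 0.424, 6.58 ± 0.655 and 3.59 ± 0.14 FPKM, with a WGFT17 log2 change of -0.91 (adjusted p = 5.08e-06).

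The summed fibroblast markers given above moved in the same order as the synthesis enzymes, from Control through JHU083 to WGFT17. By gene, 10 of 10 were lower in WGFT17 than in Control without overlap in FPKM, against 28.2% of tested genes. In JHU083 7 of 10 were lower without overlap, against 12.4%, with Dcn, Lum and Pdgfra overlapping Control. Col1a1, the most abundant of them, was at 875, 890 and 832 FPKM in Control, against 595, 548 and 495 with JHU083 and 99.5, 92.8 and 97.2 with WGFT17. Summed markers of other cells were also lower in both treatments: 19 hepatocyte markers at 1420 to 1600 CPM in Control, 230 to 818 in JHU083 and 317 to 686 in WGFT17, 9 neutrophil markers at 72.6 to 81.2, 39.9 to 47.8 and 15.8 to 25.5, and 6 B cell markers at 51.2 to 52.9, 28.4 to 35.4 and 8.64 to 10.2. The part of any of these cells in the fall of the synthesis enzymes was not tested. The JHU083 count of falling enzymes depended on single libraries: it was 6 without Control replicate 2 and 6 without JHU083 replicate 1, against 11 without JHU083 replicate 3. Acat1 lost its JHU083 call without any 1 of 7 libraries (all 3 Control, JHU083 replicates 1 and 2, WGFT17 replicates 2 and 3; adjusted p = 0.0505 to 0.12). Msmo1 lost it without any 1 of 5 (all Control, JHU083 replicates 1 and 2; 0.0606 to 0.0704). Acat2 lost it without Control replicate 1 or 2 or JHU083 replicate 1 or 3 (0.0588 to 0.139), and Pmvk without Control replicate 2 or 3 or JHU083 replicate 1 or 2 (0.061 to 0.122). Hsd17b7 and Sc5d gained a JHU083 call without JHU083 replicate 3 (adjusted p = 0.0365 and 0.0168). With JHU083 represented by replicate 3 alone, the median log2 change of the 19 enzymes was -0.33. The spread in that fit comes from the other groups, and this library is assumed to vary like them. The enzymes called in that fit differed from those called with all libraries, by losses and by gains. Fdps and Fdft1 kept their JHU083 calls in all 22 alternatives tried, and Lss in the 21 in which it was measured.

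**Figure D2:**
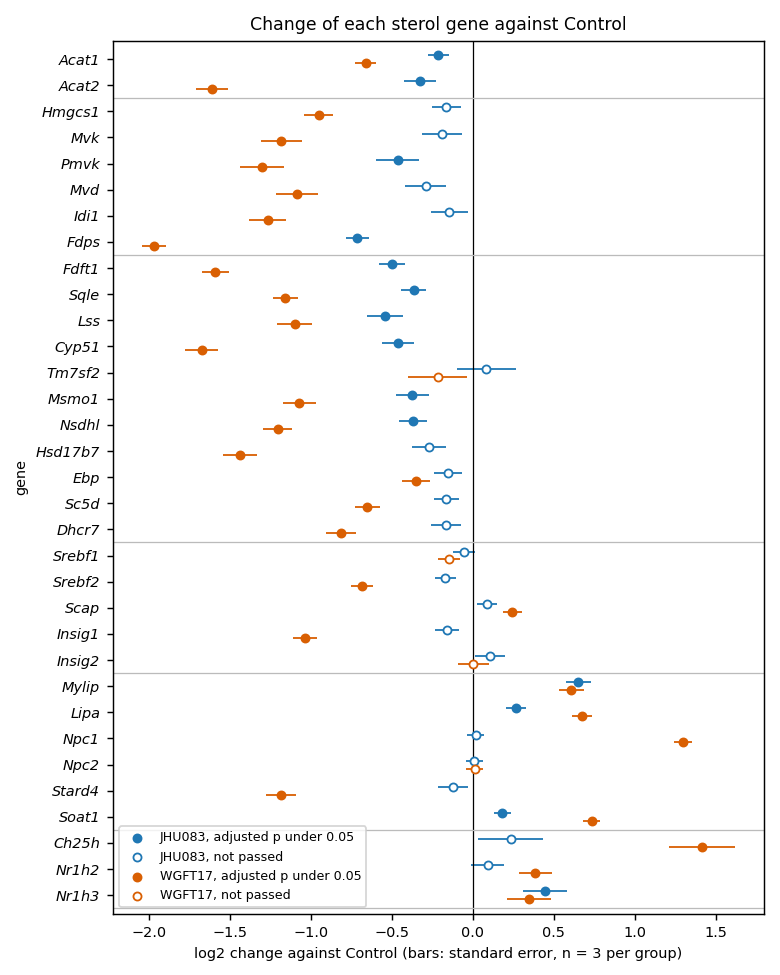
Log2 change of each of the 33 genes (vertical axis, by role) in JHU083 and in WGFT17 against Control (horizontal axis), with bars of 1 SE (n = 3 per group). Fdps lies farthest left for both treatments, at -0.71 and -1.97, and Ch25h and Npc1 lie farthest right for WGFT17, at 1.42 and 1.30. Both sets of points share the Control libraries.

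The SREBP circuit split by member in WGFT17 cells: Srebf2 and Insig1 fell, Scap rose, and Srebf1 and Insig2 did not pass the test. These 2 falls and 1 rise among 5 genes are near the shares of all tested genes, 30.0% fallen and 28.0% risen. In JHU083 0 of the 5 passed in the edgeR fit, where 24.0% of all tested genes did. At an unadjusted p under 0.05 1 passed, and 1 in DESeq2, Srebf2 in both. Srebf2, at chr15:82147181-82205379, encodes the SREBP that acts mainly on sterol genes and is itself one of its targets. It was 32.8, 32.97 and 31.1 FPKM in Control, against 33.2, 31.9 and 26.97 with JHU083 and 21.8, 21.6 and 21.5 with WGFT17. The WGFT17 libraries were within 1 FPKM of each other and below all others, and JHU083 spanned the Control range, with replicate 3 lowest. The fall in WGFT17 was 1.61-fold, a log2 change of -0.69 (SE 0.07, adjusted p = 5.83e-06). In JHU083 the log2 change was -0.17 (adjusted p = 0.088), and it passed without JHU083 replicate 1 (adjusted p = 0.0391).

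Insig1, at chr5:28071363-28078662, retains the SREBP carrier in the endoplasmic reticulum and is a standard readout of SREBP-2 activity. It was 31.5, 32.9 and 26.7 FPKM in the Control libraries, 30.2, 29.2 and 27.7 in those of JHU083 and 16.6, 16.3 and 14.9 in those of WGFT17. WGFT17 again lay below the other 6 libraries, and JHU083 lay inside the Control range. The fall was 2.05-fold in WGFT17 (log2 change -1.04, SE 0.07, adjusted p = 5.26e-07). In JHU083 the log2 change was -0.16 (adjusted p = 0.145), and it passed without Control replicate 3 (adjusted p = 0.0402). Insig2, a second retention protein that is not induced by SREBP-2 in the same way, was 8.46, 8.73 and 7.26 FPKM in Control, against 9.23, 9.22 and 9.64 with JHU083 and 8.71, 9.86 and 7.84 with WGFT17. Its WGFT17 log2 change was 0.00, with a 95% interval of -0.18 to 0.19. The WGFT17 and Control libraries of Insig2 overlapped, and all JHU083 libraries lay above Control in FPKM, with a log2 change of 0.11 in the count fit (adjusted p = 0.445).

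Srebf1, whose product acts more on fatty acid genes, was 14.8, 14.4 and 13.9 FPKM in the Control libraries, 15.9, 15.4 and 12.97 in those of JHU083 and 14.2, 13.9 and 14.03 in those of WGFT17, and the groups overlapped. The WGFT17 log2 change was -0.15 (adjusted p = 0.0872, 95% interval -0.28 to -0.01) and passed without JHU083 replicate 3 (adjusted p = 0.00515). Scap, the SREBP carrier, averaged 11.4 ± 0.363, 12.9 ± 1.12 and 14.6 ± 0.215 FPKM, and all 3 WGFT17 libraries were above the rest. Its log2 change was 0.24 in WGFT17 (adjusted p = 0.0052) and 0.09 in JHU083 (adjusted p = 0.312; 0.0291 without JHU083 replicate 3).

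Most of the 6 genes of uptake, lysosomal export and storage were higher in WGFT17. No lipoprotein receptor is among the 6, and the uptake gene, Mylip, limits uptake. Of these, Npc1, Soat1, Lipa and Mylip rose, where 28.0% of all tested genes rose, Stard4 fell and Npc2 did not pass the test. The median log2 change of the 6 was 0.64. In FPKM 5 of the 6 lay wholly above Control, Npc2 included, against 45.0% of tested genes. Over all 33 genes, Npc1 and Ch25h were the 2 that rose at least 2-fold, against 2.14% of tested genes. In JHU083 Mylip, Lipa and Soat1 rose, where 11.5% of all tested genes rose, and the median was 0.10. None of the 6 fell in JHU083 by edgeR, where 12.5% of all tested genes fell, and 0 did so at an unadjusted p under 0.05 or in DESeq2.

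**Figure D3:**
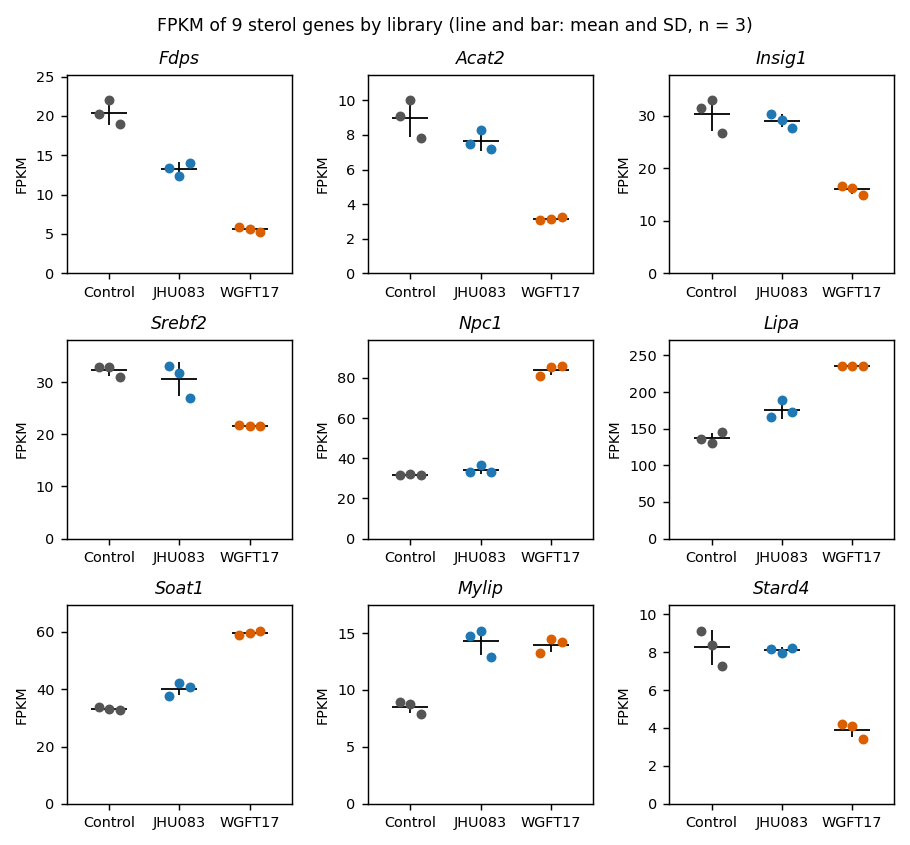
FPKM (vertical axes, from 0) of 9 of the genes in each library, with 1 point per library, a line at the group mean and a bar of 1 SD (n = 3). Fdps, Acat2, Insig1, Srebf2 and Stard4 are lowest in WGFT17, Npc1, Lipa and Soat1 are highest there, and Mylip is at a like level in JHU083 and WGFT17.

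Npc1, the membrane protein that moves cholesterol out of the lysosome, was 31.5, 31.96 and 31.5 FPKM in Control, against 33.02, 36.6 and 33.1 with JHU083 and 80.8, 85.2 and 86.1 with WGFT17. Every WGFT17 library lay far above the other 6, and JHU083 lay just above Control in FPKM. The WGFT17 rise was 2.46-fold, a log2 change of 1.30 (SE 0.05, adjusted p = 5.3e-09). The JHU083 log2 change in the count fit was 0.02 (adjusted p = 0.824, 95% interval -0.09 to 0.12). Npc2, the soluble lysosomal protein that hands cholesterol to NPC1, was 138, 148 and 153 FPKM in the Control libraries, 156, 159 and 157 in those of JHU083 and 160, 162 and 155 in those of WGFT17. Its WGFT17 log2 change was 0.01, with a 95% interval of -0.09 to 0.11. Of this pair of partners, the membrane protein's RNA rose and that of the soluble one did not pass the test.

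FPKM of all tested genes stood a median of 0.08 log2 units higher in JHU083 and 0.10 higher in WGFT17 than in Control, so that JHU083 lay wholly above Control in 31.3% of tested genes, against the 11.5% called. Among the 6 uptake, export and storage genes 5 did so, and 3 were called. Fold changes here come from the count fit, in which that shift was 0.004.

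Lipa, the lysosomal acid lipase that frees cholesterol from incoming esters, was 135, 130 and 145 FPKM in Control, against 166, 189 and 172 with JHU083 and 236, 236 and 235 with WGFT17. The 3 groups were separate and rose from Control through JHU083 to WGFT17. The log2 change was 0.67 in WGFT17 (SE 0.06, adjusted p = 4.7e-06) and 0.27 in JHU083 (adjusted p = 0.0134; 0.0637 without Control replicate 2). Soat1, the enzyme that re-esterifies cholesterol for storage, was 33.7, 33.2 and 32.7 FPKM, then 37.6, 42.2 and 40.8, then 58.98, 59.5 and 60.4. It too was separate in all 3 groups. Its log2 change was 0.74 in WGFT17 (SE 0.05, adjusted p = 4.17e-07) and 0.18 in JHU083 (adjusted p = 0.0275). Among the 14 members that are not synthesis enzymes, the 4 JHU083 rises became 2 without Control replicate 1, 1 without Control replicate 2, 2 without JHU083 replicate 2 and 7 without JHU083 replicate 3. The JHU083 call of Soat1 ended without any 1 Control library or JHU083 replicate 2 (adjusted p = 0.0546 to 0.0932).

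Mylip encodes a ubiquitin ligase that marks lipoprotein receptors for breakdown and is a known LXR target. It was 8.92, 8.75 and 7.86 FPKM in the Control libraries, 14.7, 15.2 and 12.9 in those of JHU083 and 13.2, 14.5 and 14.2 in those of WGFT17, so that both treatments lay above Control and overlapped each other. The log2 changes were 0.65 in JHU083 (SE 0.08, adjusted p = 0.000723) and 0.61 in WGFT17 (SE 0.08, adjusted p = 4.72e-05). Mylip had the highest JHU083 log2 change of the 33 genes, and both of its calls held in all 22 alternatives. Stard4, a cytosolic carrier of cholesterol whose gene is an SREBP-2 target, was 9.12, 8.37 and 7.29 FPKM in Control, against 8.18, 7.94 and 8.20 with JHU083 and 4.20, 4.09 and 3.44 with WGFT17. It fell 2.27-fold in WGFT17 (log2 change -1.19, SE 0.10, adjusted p = 1.16e-06), the direction of the synthesis enzymes. In JHU083 its log2 change was -0.12 (adjusted p = 0.372).

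The 3 LXR and oxysterol genes all rose in WGFT17, where 28.0% of all tested genes rose, and 1 of them rose in JHU083, where 11.5% did. Ch25h makes 25-hydroxycholesterol, an oxysterol that holds SREBP back and activates LXR. It was 3.59, 3.20 and 2.63 FPKM in the Control libraries, 4.34, 4.85 and 2.62 in those of JHU083 and 9.04, 8.62 and 9.46 in those of WGFT17. WGFT17 was well above the rest, and JHU083 replicate 3 matched the lowest Control library while replicates 1 and 2 lay above Control. The rise was 2.67-fold in WGFT17, a log2 change of 1.42 (SE 0.20, adjusted p = 0.000124). The JHU083 log2 change was 0.23 (adjusted p = 0.427), and 0.45 without replicate 3 (adjusted p = 0.0331).

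Nr1h2, which encodes LXR-beta, was 20.5, 21.6 and 21.6 FPKM in Control, against 26.7, 26.7 and 19.2 with JHU083 and 29.3, 30.4 and 30.2 with WGFT17. JHU083 replicate 3 lay below Control and the other two replicates lay above it. The log2 change was 0.09 in JHU083 (adjusted p = 0.544). Without replicate 3 it was 0.23 (adjusted p = 0.00299), and with replicate 3 as the sole JHU083 library it was -0.24, a difference of 1 library from Control. The sign of the JHU083 value thus depended on which libraries entered. In WGFT17 it was 0.39 (adjusted p = 0.00734). Nr1h3, which encodes LXR-alpha, was 5.40, 4.92 and 6.72 FPKM in the Control libraries, 9, 8.83 and 6.95 in those of JHU083 and 7.74, 8.45 and 7.20 in those of WGFT17, higher in every treated library than in any Control library. Its log2 changes of 0.44 and 0.35 were near the threshold (adjusted p = 0.0361 and 0.046). The JHU083 call ended without Control replicate 1 or 2, JHU083 replicate 1 or 2, or WGFT17 replicate 1 (adjusted p = 0.0547 to 0.134). The WGFT17 call ended without any of those or without WGFT17 replicate 2 (0.0504 to 0.171).

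Set side by side, synthesis and the uptake, export and storage genes separated in each treated library. For each library, the median of log2(FPKM + 1) minus the Control mean was taken over the genes of a role. For the 19 synthesis enzymes this was 0.045, 0.07 and -0.097 in Control, against -0.146, -0.225 and -0.17 with JHU083 and -0.838, -0.856 and -0.939 with WGFT17. For the 6 uptake, export and storage genes it was 0.007, 0.014 and -0.014 in Control, against 0.135, 0.27 and 0.194 with JHU083 and 0.681, 0.745 and 0.73 with WGFT17. Synthesis minus uptake and export was therefore 0.038, 0.056 and -0.083 in Control, against -0.281, -0.495 and -0.364 with JHU083 and -1.519, -1.601 and -1.669 with WGFT17. No library of one group reached the range of another. Mylip counts in the uptake and export median like the other genes, although its product marks lipoprotein receptors for breakdown. Since the genes were chosen with results of these data known, no p-value is given for this difference.

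Summed FPKM, which weights each role by its most abundant genes, gave the same order. The 19 enzymes summed to 241, 251 and 222 FPKM in Control, against 207, 202 and 205 with JHU083 and 129, 121 and 113 with WGFT17. The 6 uptake, export and storage genes summed to 357, 360 and 378, then 415, 450 and 424, then 553, 562 and 554, mostly from Lipa and Npc2.

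**Figure D4:**
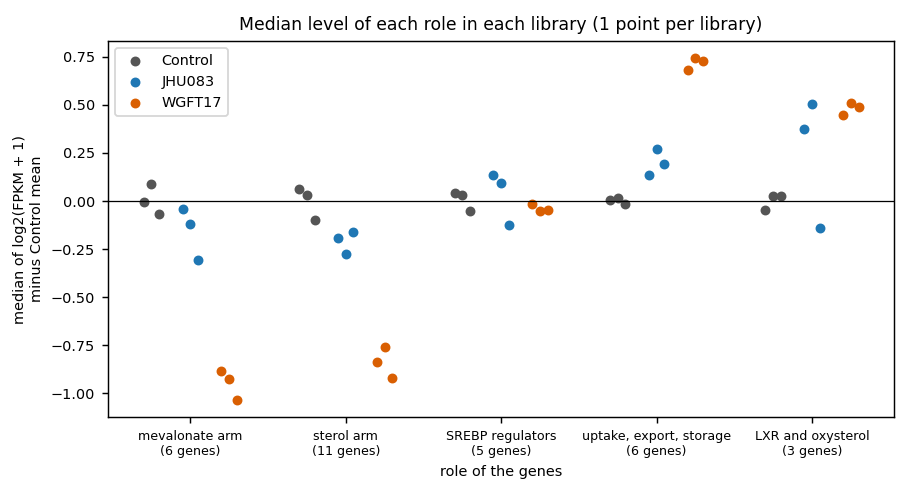
Median of log2(FPKM + 1) minus the Control mean over the genes of each role (vertical axis), with 1 point per library, for the 3 groups. In WGFT17 the enzyme roles lie well below 0 and the uptake and export role at 0.681 to 0.745, while JHU083 lies nearer to Control in these roles. JHU083 overlaps Control in the mevalonate arm, the SREBP regulators and the LXR role. In the LXR role JHU083 replicates 1 and 2 lie near WGFT17.

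WGFT17 and JHU083 were also compared directly, in the same fit. Their doses are not given, so a difference between them may be one of dose. Of the 33 genes, 20 were lower in WGFT17 than in JHU083, where 24.4% of all tested genes were, 5 were higher, where 20.4% were, and 8 did not pass the test. Among the synthesis enzymes 17 of 19 were lower, with a median log2 difference of -0.79, and 6 were lower by at least 2-fold, against 7.98% of all tested genes. In FPKM 18 of the 19 lay wholly below JHU083, against 25.9%. Acat2, Fdps and Cyp51 gave the widest gaps, at -1.29, -1.25 and -1.21 (adjusted p = 1.24e-06, 9.48e-08 and 2.45e-06). Tm7sf2 and Ebp were the enzymes that did not pass, at -0.30 and -0.20 (adjusted p = 0.212 and 0.0818). Each passed when 1 library was left out, Tm7sf2 without JHU083 replicate 3 (adjusted p = 0.0328) and Ebp without WGFT17 replicate 1 (0.0319).

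Outside synthesis, Srebf2, Insig1 and Stard4 were lower in WGFT17 than in JHU083, with log2 differences of -0.52, -0.88 and -1.06 (adjusted p = 7.14e-05, 2.59e-06 and 3.53e-06). Npc1, Ch25h, Soat1, Lipa and Nr1h2 were higher. Npc1 differed by 1.28 (adjusted p = 7.51e-09) and Ch25h by 1.18 (adjusted p = 0.000565). Soat1 and Lipa differed by 0.55 and 0.41 (adjusted p = 5.45e-06 and 0.000315). The Nr1h2 difference of 0.29 (adjusted p = 0.0363) ended without Control replicate 2 or any 1 WGFT17 library (0.0525 to 0.0954). Mylip did not differ by the test, at -0.04 with a 95% interval of -0.19 to 0.11. Insig2, Npc2 and Nr1h3 had log2 differences of -0.10, 0.00 and -0.10 (adjusted p = 0.417, 0.97 and 0.595). Scap and Srebf1 had 0.16 and -0.09 (adjusted p = 0.0583 and 0.317), and each passed when 1 library was left out, Scap without JHU083 replicate 2 (0.0182) and Srebf1 without JHU083 replicate 3 (0.00593).

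Other genes of the pathway were read from lists, with up to 2 genes of each list named per comparison by smallest adjusted p. The shares of all tested genes to set beside their counts are 28.0% risen and 30.0% fallen in WGFT17 and 11.5% risen and 12.5% fallen in JHU083. Of 13 tested genes among 16 other isoprenoid and sterol enzymes, 3 rose and 5 fell in WGFT17, and 2 rose and 1 fell in JHU083, which is near those shares. Nus1, of dolichol synthesis, rose by 0.68 on the log2 scale in WGFT17 (adjusted p = 2.44e-06), and Pggt1b, a prenyltransferase subunit, rose by 0.32 in JHU083 (adjusted p = 0.0222). Both act on isoprenoids downstream of Fdps, which fell in both treatments.

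Of 12 tested genes listed as SREBP lipogenic targets, 8 fell in WGFT17, against 30.0% of all tested genes, and 7 in JHU083, against 12.5%. In either treatment 0 rose by edgeR, by DESeq2 or at an unadjusted p under 0.05. The list is not of fatty acid synthesis alone, and Tmem97 and Pcyt2 are on it. Scd2, a stearoyl-CoA desaturase, averaged 58.9 ± 6.66, 42.1 ± 2.64 and 10.9 ± 0.256 FPKM. Fads2, the delta-6 desaturase, averaged 15.1 ± 1.29, 9.94 ± 1.13 and 1.13 ± 0.147 FPKM. Their WGFT17 log2 changes were -2.54 and -3.85 (adjusted p = 7.09e-10 and 8.24e-10), and their JHU083 log2 changes -0.58 and -0.70 (adjusted p = 0.00101 and 0.00187). Of 10 tested genes of SREBP activation and degradation, 3 rose and 1 fell in WGFT17, where 28.0% and 30.0% of all tested genes did, and 0 passed in JHU083 by edgeR, with 1 at an unadjusted p under 0.05, 0 in DESeq2 and 2 in limma on FPKM. Mbtps2, the protease that makes the last cut in SREBP, rose by 0.63 on the log2 scale in WGFT17 (adjusted p = 3.25e-06) and had 0.16 in JHU083 (adjusted p = 0.0637). Faf2, of protein extraction from the endoplasmic reticulum, had -0.10 in JHU083 (adjusted p = 0.14).

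Of 9 lipoprotein receptors, 5 rose and 1 fell in WGFT17, and 1 rose in JHU083, against 28.0%, 30.0% and 11.5% of all tested genes. The 1 that fell, named after its values were seen, was Scarb1 (log2 change -0.22, adjusted p = 0.0185). Msr1, a scavenger receptor for modified lipoprotein, averaged 27.7 ± 1.35, 41.1 ± 3.01 and 56.5 ± 4.4 FPKM and passed in both treatments (adjusted p = 0.00212 in JHU083 and 1.4e-06 in WGFT17). Cd36, a receptor for oxidised lipoprotein and fatty acids, averaged 140 ± 15.3, 180 ± 18.8 and 245 ± 8.52 FPKM (adjusted p = 0.0559 and 7.42e-05). Vldlr had a WGFT17 log2 change of 0.73 (adjusted p = 3.2e-05). Of 16 tested sterol transport proteins, 8 rose and 1 fell in WGFT17, and 3 rose in JHU083, against the same shares. The 1 that fell was Osbpl5, also named after its values were seen (log2 change -0.68, adjusted p = 7.46e-05). Scarb2 and Lamp1, lysosomal membrane proteins, had WGFT17 log2 changes of 0.62 and 0.50 (adjusted p = 1.21e-06 and 5.66e-06). Osbpl8 and Osbpl2, of the oxysterol-binding protein family, had 0.90 and 0.43 (adjusted p = 6.68e-06 and 5.31e-05).

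Of 4 genes of ester storage and hydrolysis, 3 rose in WGFT17 and 1 in JHU083, against 28.0% and 11.5% of all tested genes. Soat2, the other sterol acyltransferase, averaged 0.54 ± 0.199, 0.74 ± 0.215 and 4.17 ± 0.666 FPKM, a low level in every group beside that of Soat1. Its WGFT17 log2 change was 2.83 (adjusted p = 1.22e-05). Plin2, which coats lipid droplets, averaged 109 ± 15.6, 131 ± 16.2 and 268 ± 8.66 FPKM (adjusted p = 0.251 in JHU083 and 3.1e-06 in WGFT17). Nceh1, an ester hydrolase, averaged 48.7 ± 1.22, 65.7 ± 1.95 and 84.9 ± 1.08 FPKM (adjusted p = 0.00101 and 1.75e-07).

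The 8 LXR partners and targets had no common direction: 4 rose and 2 fell in WGFT17, where 28.0% and 30.0% of all tested genes did, and 0 rose and 2 fell in JHU083 by edgeR. Upward in JHU083, 2 had an unadjusted p under 0.05, and 0 passed in DESeq2 and 3 in limma on FPKM. Smpdl3a, a secreted phosphodiesterase, averaged 105 ± 4.18, 124 ± 10.1 and 276 ± 0.761 FPKM, and it rose in WGFT17 (log2 change 1.28, adjusted p = 2.6e-08). Lpcat3, which remodels membrane phospholipid, had log2 changes of -0.30 in JHU083 and -0.56 in WGFT17 (adjusted p = 0.00338 and 4.62e-06). Pltp, the phospholipid transfer protein, had -0.29 and -0.72 (adjusted p = 0.0244 and 1.7e-05). Of 3 tested oxysterol enzymes, 1 rose and 2 fell in WGFT17 (against 28.0% and 30.0%), and in JHU083 0 passed in edgeR, in DESeq2 or at an unadjusted p under 0.05, and 1 in limma on FPKM. Cyp27a1, which makes 27-hydroxycholesterol, had a WGFT17 log2 change of -0.43 (adjusted p = 0.000372), opposite to Ch25h, and Hsd3b7, which acts on oxysterols downstream, had 0.43 (adjusted p = 0.000787).

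**Figure D5:**
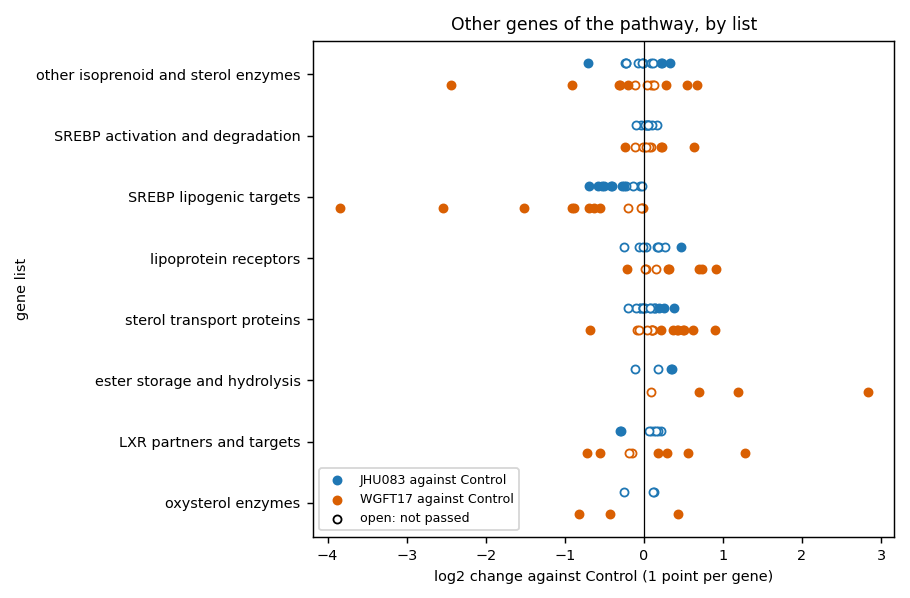
Log2 change against Control (horizontal axis) of the other pathway genes, 1 point per gene, by list (vertical axis) and treatment. The lipogenic targets reach -3.85 in WGFT17 and none of them rose, while the ester storage genes reach 2.83.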

How the data were processed

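RNA of 9 macrophage libraries was read from 1 table, with 3 libraries per group assigned by the sample titles and the file header. Per the labels' protocols, poly(A) RNA gave libraries that keep the strand (dUTP) and were read from both ends for 150 bases. Tools named in the submitters' processing notes, with no roles, were cutadapt 1.9, HISAT2 2.2.1 and StringTie 2.1.6, besides DESeq2 and edgeR, and the build named was mm9. For 30 of the 33 genes (all but Tm7sf2, Scap and Nr1h2) and 90.2% of matched genes, positions were identical to GENCODE M21 on GRCm38, so GRCm38 is used here.

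FPKM values were computed by the authors and are normalised to transcript length and depth. The deposited expected counts (estimated counts) are whole and not scaled to depth, with about 4 counts per read pair by their spacing, and were tested as deposited. Levels and group overlaps are those of FPKM.

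The test covered the 11798 of 28998 genes whose mean FPKM was at least 1. It was the quasi-likelihood test of edgeR 4.0.16 under R 4.3.3, with TMM normalisation and a single fit of the 9 libraries, and Benjamini-Hochberg adjustment over all tested genes. A gene was called at an adjusted p under 0.05, and "rose" and "fell" are used of such genes. The biological coefficient of variation was 0.122. The fit was tested on simulated data. DESeq2 1.42.0, limma 3.58.1 on log2(FPKM + 1) or log2(FPKM + 0.1) and other settings were alternatives. All 33 genes were to be reported, and of the other lists the 2 genes with the smallest adjusted p in each comparison; some of the latter are not reported here. The genes, lists and markers were chosen with earlier results of these data known. No list was tested as a set.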

Additional observations from a re-analysis of the deposited data

How the results depend on the processing

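Each member was recomputed in up to 22 alternatives. Of the 29 calls in WGFT17 against Control, 27 held in every alternative that measured the gene, the exceptions being Ebp and Nr1h3. Of the 25 in WGFT17 against JHU083, 24 held, all but Nr1h2, and of the 14 in JHU083 against Control, 4 held. The cause of each change below was not tested, except that a floor of 5 FPKM tests fewer genes (4151 called in WGFT17 and 3305 in WGFT17 against JHU083).

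Where JHU083 is replicate 3 alone, that library is assumed to vary like the other groups. Calls in that fit are not counted here. In JHU083 against Control, 6 enzymes fell with no FPKM floor. Of the other 14 members, 2 rose with no floor, with 2 groups only, with the replicate block or with the length trend removed. Among them 1 fell in DESeq2 and with the length trend removed. Median log2 changes became -0.2 (synthesis, FPKM + 1), 0.188, 0.193 and 0.029 (uptake and export: FPKM + 1, FPKM + 0.1, length), and synthesis minus uptake -0.258 (length). With replicate 3 alone the SREBP median was -0.22, and the LXR median and Nr1h2 reversed to -0.237. In WGFT17 against Control, with FPKM + 1, FPKM + 0.1 and the length trend removed, medians were -0.918, -1.04 and -0.997 for synthesis, -0.034, -0.037 and -0.059 for SREBP, 0.719, 0.748 and 0.763 for uptake and export, and 0.476, 0.493 and 0.588 for LXR, and synthesis minus uptake was -1.637 with FPKM + 1. These fits moved the median of all genes by 0.095, 0.112 and 0.16. In WGFT17 against JHU083, synthesis was -0.706 (FPKM + 1), -0.665 (length) and -0.904 (replicate 3 alone), synthesis minus uptake -1.167 (replicate 3 alone), uptake and export 0.333 (length), and SREBP reversed to 0.039 (length, where all genes moved by 0.139). The shorter motif was found in 3 genes, against 1.

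Leaving out 1 library gave 1534 to 3731 called genes in JHU083 against Control (2831 with all), 6 to 11 falling enzymes, 1 to 7 other members rising and 0 to 1 falling. The LXR median in WGFT17 against Control was 0.36 to 0.492 and synthesis minus uptake -1.887 to -1.748. Synthesis in WGFT17 against JHU083 was -0.859 to -0.742. The share of calls that were rises was 47.7% in JHU083 (58.7% with library totals, 71.6% with FPKM + 1), 48.3% in WGFT17 (60.9% and 66.3% with FPKM + 1 and the length trend removed) and 45.5% in WGFT17 against JHU083 (66.6% with the length trend removed). Deviations of libraries with the same replicate number correlated at -0.034 to 0.161. With 3 libraries per group these values show no strong shared effect, but they cannot tell whether the samples were paired. The replicate block gave 2330, 6530 and 4907 called genes in JHU083, WGFT17 and WGFT17 against JHU083.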
